A study of Mus musculus with 6 samples.

Results

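The 10 genes described here encode heat shock proteins and cochaperones, and they were taken from a named list together with the rule that every probe set annotated to one of them alone is read on every array. They are Hspa1a, Hspa1b, Dnajb1, Hsph1, Hspb1 and Hsp90aa1, treated as stress-inducible, and Hspa8, Hspd1, Hspe1 and Hspa5, treated as constitutive. The array carried 25 such probe sets, 15 inducible and 10 constitutive, among 45037 that are not Affymetrix controls, and the 10 genes stand among 18193 named on it. Of the 25, 24 reached the mean signal needed for testing; the exception was 1441827_x_at of Hsp90aa1, with 44.9, 43.5 and 32.9 with doxycycline and 48.5, 35.0 and 38.8 uninduced.

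The samples were embryoid bodies, the free-floating clumps that mouse embryonic stem cells form as they differentiate, and both groups came from the same line, Hoxb4i, in which a tet-on cassette switches on HOXB4 when doxycycline is present. The doxycycline group received 2 µg/ml for 48 hours from day 4, the uninduced group received none, and both started at 3500 cells/ml and were lysed on day 6; 4.3 µg of total RNA was labelled for each Affymetrix mouse array. Each group has 3 arrays, lettered A, B and C by experiment, which the study calls biological replicates; the labels do not describe the separate cultures further. Since no sample received doxycycline without the cassette, HOXB4 and the drug itself cannot be told apart, and since whole embryoid bodies were lysed, fewer cells of a type and less RNA per cell cannot be told apart either. The genes were selected on measured values of these samples, the doxycycline difference within each experiment, so every doxycycline difference below is a description without a test.

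Heat shock proteins are chaperones: they hold, fold and refold other proteins, and HSP70 does so in a cycle driven by ATP that J-domain proteins start and nucleotide exchange factors reset. Inducible members are kept low in unstressed cells and are switched on by heat shock factors, above all HSF1, which bind heat shock elements built from GAA units in alternating orientation. Constitutive members such as Hspa8 in the cytosol, Hspd1 with Hspe1 in the mitochondrion and Hspa5 in the endoplasmic reticulum serve protein folding at all times, and Hspa5 is raised by the unfolded protein response. In the mouse, inducible HSP70 is among the early genes that the embryo transcribes for itself.

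The sequences before the gene starts are shown because Hspa1a and Hspa1b, the pair on which most of the results turn, are nearly the same gene, and because the elements named above can be read in them. All are from RefSeq on build GRCm38.p6, 5′ to 3′ on the strand of the gene, with capitals marking a match to a searched motif. The first pair covers 250 bases before each start, at chr17:34959239-34959488 for Hspa1b and chr17:34972157-34972406 for Hspa1a, both on the minus strand, with capitals on a pair of facing GAA units.
Hspa1b: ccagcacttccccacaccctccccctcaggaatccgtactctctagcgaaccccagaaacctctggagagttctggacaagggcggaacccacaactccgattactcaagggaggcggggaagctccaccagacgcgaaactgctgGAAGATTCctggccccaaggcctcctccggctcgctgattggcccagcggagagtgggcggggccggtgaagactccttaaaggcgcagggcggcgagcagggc
Hspa1a: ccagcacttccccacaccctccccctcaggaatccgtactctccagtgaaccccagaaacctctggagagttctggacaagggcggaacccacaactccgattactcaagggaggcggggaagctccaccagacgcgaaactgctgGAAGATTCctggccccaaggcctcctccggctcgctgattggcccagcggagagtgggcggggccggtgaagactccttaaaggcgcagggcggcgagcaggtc
The windows carried the same base at 247 of 250 positions (98.8%), their gene starts lie 12918 bases apart on chromosome 17, and the match GAAGATTC begins 104 bases before each start. The window of Hspa5 at chr2:34771840-34772089, plus strand, has capitals on an ER stress response element, the motif through which the unfolded protein response acts, 65 bases before the start.
Hspa5: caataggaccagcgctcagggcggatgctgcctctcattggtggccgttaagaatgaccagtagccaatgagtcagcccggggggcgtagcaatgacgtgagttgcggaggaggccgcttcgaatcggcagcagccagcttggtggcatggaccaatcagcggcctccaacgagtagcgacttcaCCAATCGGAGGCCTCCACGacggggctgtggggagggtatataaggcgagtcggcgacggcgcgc
Hspd1 and Hspe1 are transcribed away from each other, and the 215 bases between a start of Hspd1 and the start of Hspe1, chr1:55087933-55088147, are given on the strand of Hspe1 with capitals on a run of GAA units.
Hspd1 and Hspe1: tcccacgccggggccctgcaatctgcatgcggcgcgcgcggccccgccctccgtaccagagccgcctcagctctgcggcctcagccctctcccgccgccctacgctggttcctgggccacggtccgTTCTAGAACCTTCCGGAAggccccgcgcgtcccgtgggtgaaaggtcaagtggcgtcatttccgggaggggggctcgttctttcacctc

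The motifs were searched on both strands as GAANNTTC and TTCNNGAA for a pair of GAA units, which may overlap one another, as GAANNTTCNNGAA and TTCNNGAANNTTC for 3 alternating units, which contain both pairs, and as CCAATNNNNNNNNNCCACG for the ER stress response element. Of 32851 RefSeq windows of 250 bases, 6.69% held GAANNTTC, 7.17% TTCNNGAA, 12.8% either pair, 0.466% 3 alternating units and 0.113% the ER stress response element. Among the genes studied, 8 of 10 had a window. Hspa1a, Hspa1b, Hspb1, Hsph1, Hspd1 and Hspe1 held a pair of units, Hspd1 and Hspe1 held 3 alternating units in the stretch they share, Hspa5 held the ER stress response element and Dnajb1 had no match in these windows. A match describes letters and not a bound site.

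Uninduced array A differed from the other 5 in RNA controls before any chaperone was read. For Actb its 3′ over 5′ ratio was 2.88 where the others had 1.26 to 1.48, and for Gapdh 1.08 where they had 0.834 to 0.903; a high ratio means that signal is weaker toward the 5′ end of the transcript. The experiments also differed in cell-type markers. The summed signal of 7 blood markers was 27408 with doxycycline and 37550 uninduced in B, and 689 to 3507 on the 4 arrays of A and C. The summed signal of 6 neural markers was 458 with doxycycline and 664 uninduced in B, and 3586 to 9101 on the 4 arrays of A and C. Most of that neural sum was Sox2, at 2687.5 with doxycycline and 4389.5 uninduced in A, and 6064.6 and 6163.4 in C. Of the other marker sums, 6 endoderm markers gave 601 to 629 in C and 6821 to 12933 in A and B. Over the 6 arrays, 5 endothelial markers gave 230 to 5122, 6 cardiac markers 228 to 3236, and 4 pluripotency markers 387 to 1423. The neural and cardiac sums each include 1 marker too dim for testing, Neurog2 and Actn2. The inducer's target, Hoxb4, gave 136, 261 and 151 with doxycycline in A, B and C on 1460379_at, against 78.2, 253 and 27.6 in uninduced arrays. On that probe set it was higher with doxycycline in 3 of 3 experiments and least so in B, by 0.04 log2 units. Whether 1460379_at reads the transcript of the cassette, of the endogenous gene or of both is not stated. The array held a further Hoxb4 probe set, 1451761_at, whose values are not given here.

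The inducible HSP70 genes gave the widest spread of all the chaperones studied, and uninduced A was the highest array on each of their probe sets. Hspa1b, the stress-induced cytosolic HSP70, gave signals of 458, 175 and 263 with doxycycline in A, B and C on 1452318_a_at, against 3046, 542 and 230 in uninduced embryoid bodies. The uninduced array of A was 5.62-fold above the highest of the other 5 arrays, and the groups overlapped. The log2 difference, taken as doxycycline minus uninduced on log2(signal + 18.8), was -2.68, -1.53 and 0.18 over A, B and C, with a mean of -1.35 ± 1.44 (SD, n = 3). A limma fit that leaves out the pairing of arrays by experiment gave a 95% interval of -3.30 to 0.61, given as a description. Hspa1b was therefore lower with doxycycline in A and B and not in C.

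Both other probe sets of Hspa1b showed the same array on top. On 1427127_x_at the signals were 457, 204 and 182 with doxycycline, against 1532, 405 and 304 in uninduced arrays, and doxycycline was lower in 3 of 3 experiments, with differences of -1.71, -0.93 and -0.68. On 1427126_at they were 253, 178 and 173 with doxycycline, against 862, 223 and 168 in uninduced arrays, with differences of -1.69, -0.29 and 0.04. Hspa1a, its near copy, gave 219, 92.3 and 128 with doxycycline on 1452388_at, against 842, 212 and 41.7 in uninduced arrays. Its differences were -1.86, -1.06 and 1.28, so experiment C ran the opposite way to A and B, and the mean was -0.54 ± 1.63 (SD, n = 3). Because the genes are near copies, signal of one on the other's probe set cannot be separated here, and the x in a probe set's name marks one with probes that may match other transcripts.

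The 4 probe sets of the pair were 3.36 to 5.62 times as bright on uninduced A as on the brightest of the other 5 arrays, and lay 2.16 to 3.44 log2 units above the median of those 5. Of 27022 tested probe sets, 77 (0.285%) lay as far above their median on that array as the least of these 4. The RNA control ratio of the same array was also the highest of the 6, as given above, and its part in these values was not tested. Without uninduced A the mean log2 difference was -0.33 for Hspa1b and 0.41 for Hspa1a, and without both arrays of A it was -0.68 and 0.11. Leaving out uninduced C moved it the other way, to -2.145 and -1.505, and leaving out both arrays of C to -2.11 and -1.46. Hspa1a still ran from 41.7, on uninduced C, to 218.7 over the 5 arrays other than uninduced A. The pair also gave its highest values among the doxycycline arrays in A, on 4 of 4 probe sets.

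**Figure D1:**
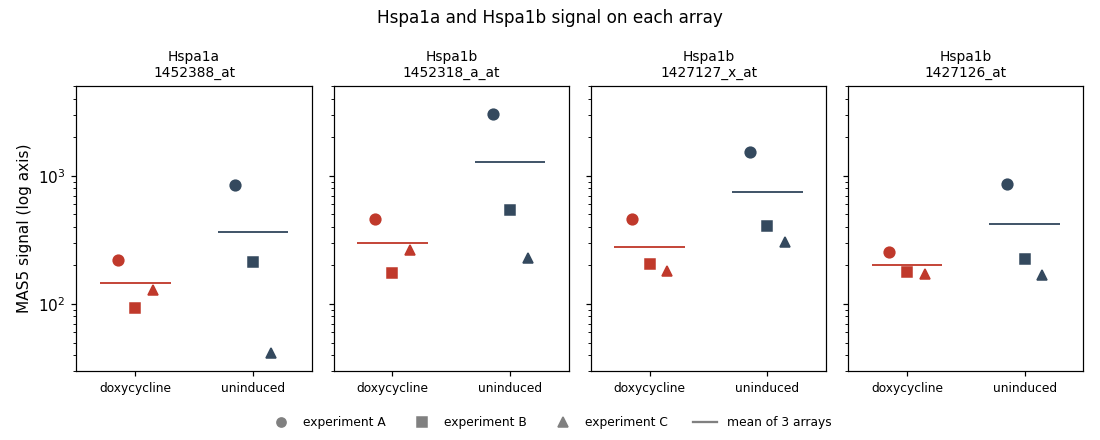
Signal (log axis) of the Hspa1a probe set and the 3 Hspa1b probe sets on the 3 doxycycline arrays and the 3 uninduced arrays. Marker shapes stand for experiments and horizontal lines for the mean of 3 arrays. The uninduced array of A is the highest point in each panel, and for Hspa1a experiment C is higher with doxycycline, 128 against 41.7.

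The difference of uninduced A from the rest was not a general rise of chaperones. Over the 25 probe sets it was the highest array on 8 and the lowest on 6, against 29.9% highest and 23.9% lowest over all tested probe sets. Dnajb1, the J-domain protein that delivers clients to HSP70, showed both directions. On 1416756_at it gave 1776, 1686 and 1948 with doxycycline, against 939, 1613 and 1699 in uninduced arrays, so uninduced A was the lowest of the 6, and the log2 differences were 0.91, 0.06 and 0.20. On its brighter probe set 1416755_at it gave 2312, 2416 and 2392 with doxycycline, against 2597, 3028 and 2756 in uninduced arrays. Those groups did not overlap, doxycycline being lower in each experiment, with differences of -0.17, -0.32 and -0.20.

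**Figure D2:**
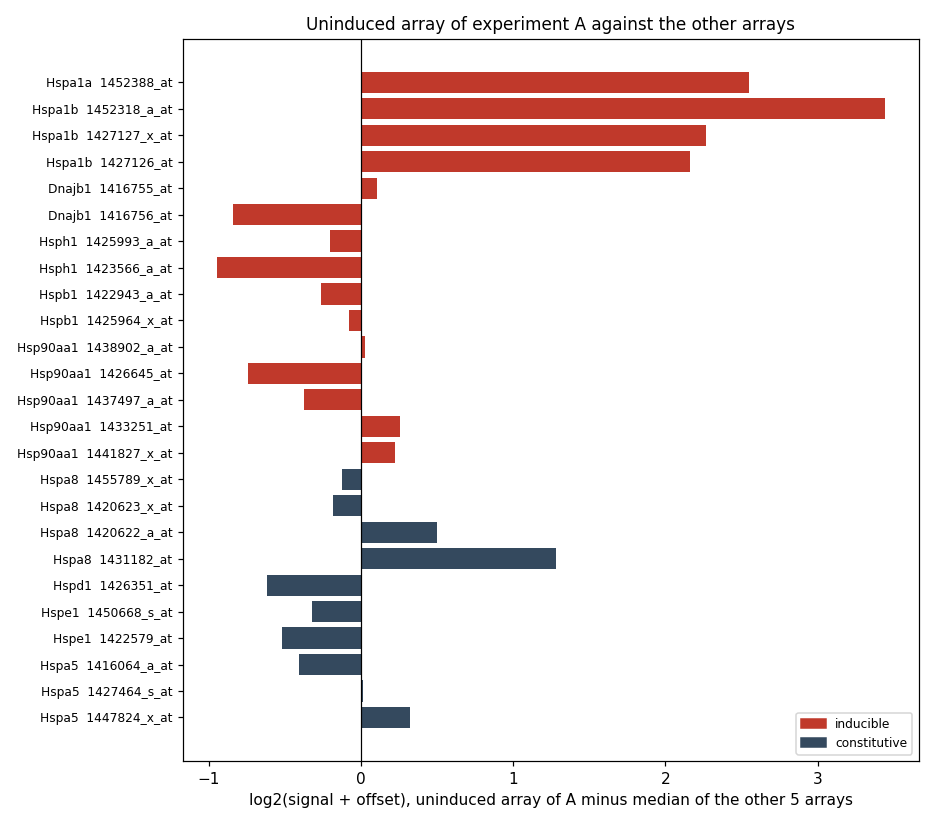
Log2 distance of uninduced array A from the median of the other 5 arrays, for each of the 25 chaperone probe sets. The 4 probe sets of Hspa1a and Hspa1b stand between 2.16 and 3.44, and 1423566_a_at of Hsph1 and 1416756_at of Dnajb1 lie below 0, at -0.95 and -0.84.

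Hsph1, an HSP110 protein that exchanges nucleotide on HSP70, gave 1735, 1541 and 2189 with doxycycline on 1423566_a_at, against 906, 1768 and 1908 in uninduced arrays. Uninduced A was again the lowest, and the differences were 0.92, -0.20 and 0.20. The other Hsph1 probe set, 1425993_a_at, gave 2486, 2263 and 3185 with doxycycline, against 2518, 2907 and 2986 in uninduced arrays, with overlapping groups and a mean difference of -0.09 ± 0.24 (SD, n = 3). The 2 probe sets of one gene therefore disagreed in A, at 0.92 on 1423566_a_at and near 0, at -0.02, on 1425993_a_at. Hspb1, a small heat shock protein that holds unfolded proteins, gave 594, 730 and 819 with doxycycline on 1422943_a_at, against 597, 722 and 611 in uninduced arrays. Its differences were near 0 in A and B and 0.41 in C, and on 1425964_x_at the mean was 0.10 ± 0.25 (SD, n = 3).

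Hsp90aa1, the stress-inducible cytosolic HSP90, was steady on its brightest probe set and not on the others. On 1438902_a_at it gave 20563, 19506 and 19314 with doxycycline, against 19924, 19543 and 19934 in uninduced arrays. The range over the 6 arrays was 0.09 log2 units there, and 99.98% of tested probe sets had at least as wide a range, whereas that of Hspa1b was 3.98, a width that 0.947% of tested probe sets reach. On 1426645_at it gave 13665, 15326 and 15163 with doxycycline, against 9158, 18268 and 18613 in uninduced arrays, so uninduced A was again the lowest. The differences there were 0.58, -0.25 and -0.30. On 1437497_a_at they were 0.18, -0.44 and -0.50. The dim 1433251_at gave 55.0, 61.2 and 11.1 with doxycycline, against 76.9, 112 and 73.8 in uninduced arrays, and the groups did not overlap. Its mean difference was -0.90 ± 0.65 (SD, n = 3), at signals close to the offset of 18.8.

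Hspa8, the constitutive cytosolic HSP70, was lower with doxycycline in 3 of 3 experiments on 3 of its 4 probe sets, by small amounts where it was bright. On 1455789_x_at it gave 24158, 28987 and 24019 with doxycycline, against 26378, 30513 and 28823 in uninduced arrays, with differences of -0.13, -0.07 and -0.26. On 1420623_x_at the differences were -0.20, -0.17 and -0.06. The dim 1431182_at gave 375, 259 and 245 with doxycycline, against 753, 538 and 299 in uninduced arrays, and was lower by larger amounts, at -0.97, -1.0 and -0.27. Uninduced A was its highest array, as for the inducible pair. On 1420622_a_at doxycycline was lower in A and C and higher in B, at -0.47, 0.09 and -0.29.

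Hspd1, the mitochondrial HSP60, gave 13661, 13098 and 16229 with doxycycline on 1426351_at, against 9626, 14804 and 16829 in uninduced arrays. Hspe1, the HSP10 that caps the Hspd1 chamber, gave 10624, 11024 and 10141 with doxycycline on 1450668_s_at, against 8831, 11312 and 13002 in uninduced arrays. Both were higher with doxycycline in A, at 0.50 and 0.27, and lower in B and C, at -0.18 and -0.05 for Hspd1 and -0.04 and -0.36 for Hspe1. The second Hspe1 probe set, 1422579_at, followed the same signs at 0.52, -0.27 and -0.34. On all 3 probe sets of these genes uninduced A was the lowest of the 6 arrays, the opposite of Hspa1b.

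Hspa5, the chaperone of the endoplasmic reticulum also called BiP, gave 11862, 17822 and 12865 with doxycycline on 1416064_a_at, against 13231, 23328 and 17580 in uninduced arrays. The groups overlapped, in that the doxycycline array of B lay above the uninduced arrays of A and C. Within each experiment doxycycline was lower, in 3 of 3, at -0.16, -0.39 and -0.45 (mean -0.33 ± 0.15, SD, n = 3). On 1447824_x_at it was lower in 3 of 3 as well, at -0.09, -0.42 and -0.25. On 1427464_s_at it was lower in A alone, at -0.16, 0.12 and 0.17.

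**Figure D3:**
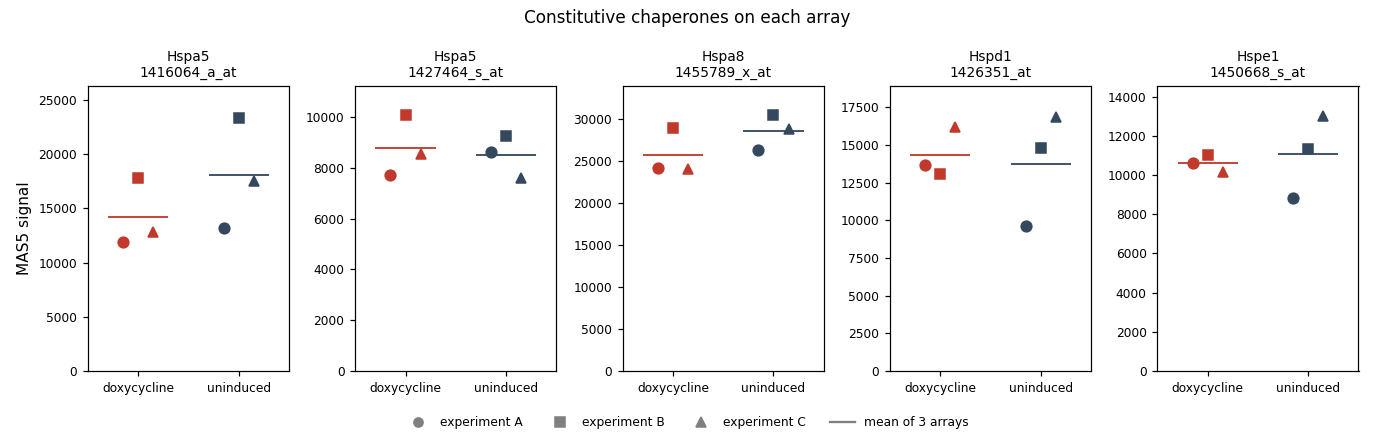
Signal (linear axes from 0) of 2 Hspa5 probe sets and 1 each of Hspa8, Hspd1 and Hspe1 with doxycycline at the left and uninduced at the right; marker shapes stand for experiments and horizontal lines for means of 3 arrays. The 1416064_a_at panel shows experiment B on top in both groups, and the Hspd1 and Hspe1 panels show uninduced A lowest, at 9626 and 8831.

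Over the 24 tested probe sets the mean difference was below 0 on 17 and above 0 on 7. It was lower with doxycycline in 3 of 3 experiments on 8 (13.2% of all tested probe sets were) and higher in 3 of 3 on 1 (12.8% of all tested probe sets). The groups did not overlap on 2 probe sets, both lower with doxycycline (2.11% of all tested probe sets), and on 0 in the other direction (2.24%). Nothing is read from these shares, since the doxycycline difference chose the genes. Across the array limma called 0 of 27022 probe sets at an adjusted p under 0.05 (0%), with 138 under an unadjusted 0.05. With the replicate block 1065 were under it, and again none was called. In the fit without the block, the median tested probe set had a 95% interval of 0.808 log2 units to each side.

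Setting inducible against constitutive genes, with each gene at its brightest tested probe set, gave opposite orders in different experiments. The mean difference of the 6 inducible genes was -0.78, -0.54 and 0.29 over A, B and C. For the 4 constitutive genes it was 0.12, -0.17 and -0.28. Inducible minus constitutive was therefore -0.90, -0.37 and 0.57, with a mean of -0.24 ± 0.74 (SD, n = 3), smaller than the spread between experiments. It was 0.23 without uninduced A, which leaves the doxycycline array of A unpaired, and 0.096 without both arrays of A. Without Hspa1a and Hspa1b it was 0.06, and without experiment C it was -0.64. The medians of the mean differences were -0.16 for the inducible and -0.10 for the constitutive genes, against 0.02 for the 12452 tested genes. The mean difference was below 0 for 5 of 6 inducible and 3 of 4 constitutive genes, and for 47.0% of all tested genes.

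**Figure D4:**
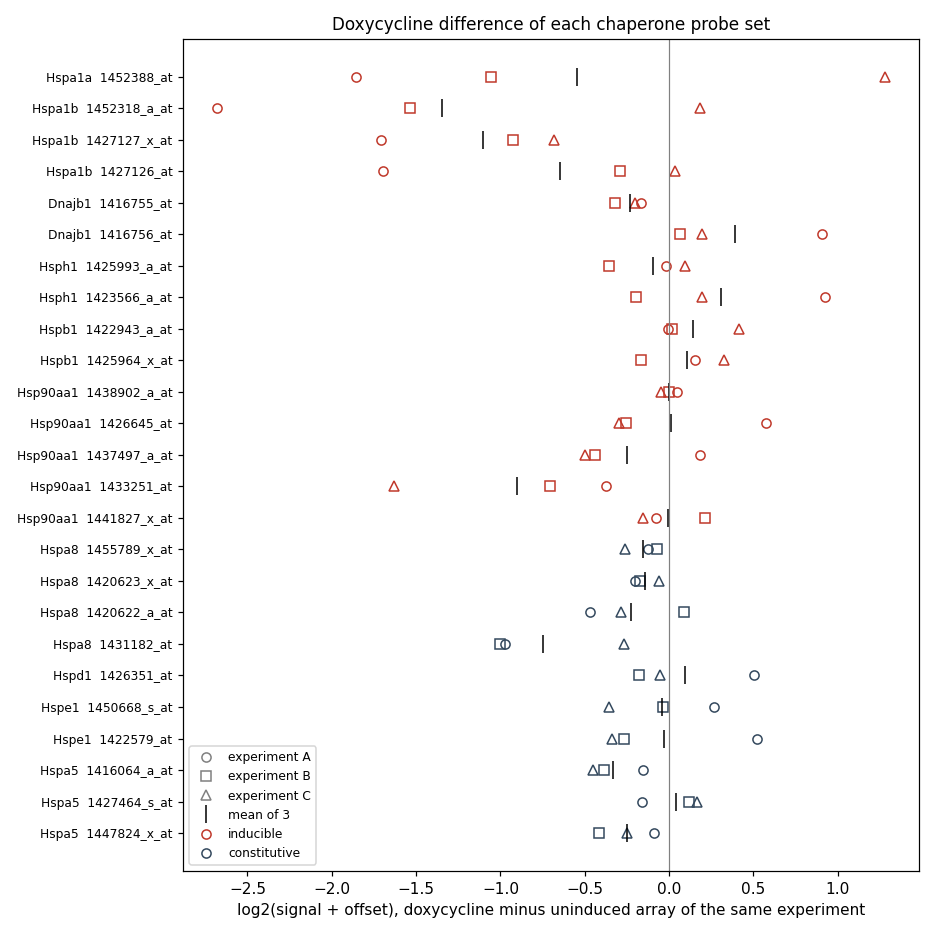
Log2 difference, doxycycline minus uninduced, of each chaperone probe set in experiments A, B and C. Hspa1a and Hspa1b span the widest range, -2.68 to 1.28, and for 1438902_a_at of Hsp90aa1 the 3 experiments nearly coincide at 0.

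The difference between experiments was not used to choose the genes and was tested with limma's F test over A, B and C, with doxycycline as a term. At an adjusted p under 0.05 it called 2 of the 24 tested chaperone probe sets, beside 11.6% of all tested probe sets. Those were 1427127_x_at of Hspa1b, with mean log2 levels of 9.75, 8.26 and 7.99 over A, B and C (adjusted p = 0.0185), and 1416064_a_at of Hspa5, with 13.62, 14.32 and 13.88 (adjusted p = 0.0267). The Hspa5 difference was 0.70 for B minus A (limma adjusted p = 0.0285), and B had the highest summed signal of blood, endothelial, cardiac and endoderm markers and the lowest of neural and pluripotency markers. The means of A, B and C were 876, 4919 and 428 for endothelium, 1388, 2633 and 305 for cardiac muscle and 7375, 12688 and 615 for endoderm. The endoderm sum of B was mostly Ttr, at 10701 with doxycycline and 11110 uninduced. In both groups Ttr and Apoa1 were higher in B than in A, whereas Afp, Foxa2 and Sox17 were lower, and Apob was mixed. The part of these cell types in the Hspa5 level was not tested. Of the blood markers Hbb-y was near 0 in A, at 1.1 with doxycycline and 2.9 uninduced, and none was near 0 in B. Hspa1b on 1452318_a_at had an adjusted p of 0.0634 and on 1427126_at of 0.105, and Hspa1a 0.103. The remaining probe sets of Hspa5 had 0.333 and 0.227, so only 1 of 3 was called. Without uninduced A the values of the called probe sets were 0.00273 and 0.000197, from a fit with 1 residual degree of freedom. Without both arrays of A the Hspa1b value was 0.470 and that of Hspa5 was 0.000486. The Hspa5 probe set was no longer called when any 1 of the 4 arrays of B and C was left out (limma adjusted p of 0.0563 to 0.139), and was also lost with no filter on dim probe sets (0.0652). With no doxycycline term 0 of the 24 were called (limma adjusted p of 0.0851 for Hspa1b and 0.0600 for Hspa5). The count was 6 of 24 without uninduced A and 14 without the doxycycline array of A, fits that called 32.4% and 51.1% of all tested probe sets. It was 3 without the doxycycline array of C (5.56%), and 1 without the doxycycline array of B (6.54%) or uninduced B (5.68%). Taking 1 probe set a gene, 1 of the 10 genes passed, beside 14.0% of tested genes.

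Over the 6 arrays the log2 signals of Hspa1b and Hspa1a had a Pearson r of 0.94, and the 3 Hspa1b probe sets correlated at 0.96 to 0.97. Hspd1 and Hspe1, which share the stretch shown above, had 0.79 on 1450668_s_at and 0.82 on 1422579_at. Hspd1 and 1423566_a_at of Hsph1 had 0.97. Hspa1b ran opposite to Hspd1 (r = -0.82) and Hspe1 (r = -0.74). On its brightest probe set Hspa5 had r of 0.95 with 1455789_x_at of Hspa8 and 0.81 with 1416755_at of Dnajb1, but its other 2 probe sets had 0.47 and -0.26 with that of Hspa8 and 0.11 and 0.16 with that of Dnajb1. The 3 Hspa5 probe sets correlated with one another at only 0.48, -0.36 and -0.64. The genes most like Hspa1b, of 40 with r of 0.95 or more, were Ctu2, Cntrl, Utp20, Slmap and Snrnp48, at r of 0.99. Like Hspa1b they were highest on uninduced A, with Snrnp48 at 1677, 1156 and 1194 with doxycycline, against 3257, 1513 and 1144 in uninduced arrays. Those most like Hspa5 were Zfp729a, Rpn1, Slc2a3, Fam32a and Htatsf1, at 0.98 to 0.99, with 21 genes at 0.95 or more. These correlations describe 6 arrays that share 3 experiments and 1 scaling, and include the array with the high control ratio.

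The wider chaperone system was read from 9 lists of other chaperones, 109 symbols in all, of which 103 were on the array and 97 were tested. Doxycycline was lower in 3 of 3 experiments for 20 genes (20.6%, beside 12.4% of tested genes) and higher in 3 of 3 for 5 (5.15%, beside 13.8%). The median difference was -0.04, and limma called none of them for doxycycline. The cytosolic chaperonin and its prefoldin helpers had 5 of 14 lower and none higher in 3 of 3, the HSP90 partners 3 lower and 1 higher of 10, the J-domain proteins 3 lower of 17, and the mitochondrial list none in either direction of 8. In 22 endoplasmic reticulum genes 3 were lower in 3 of 3. The F test between experiments called 9 of the 97 (9.28%, beside 14.0% of tested genes), 5 of them in the endoplasmic reticulum list and none in the chaperonin, J-domain, mitochondrial or heat shock factor lists.

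**Figure D5:**
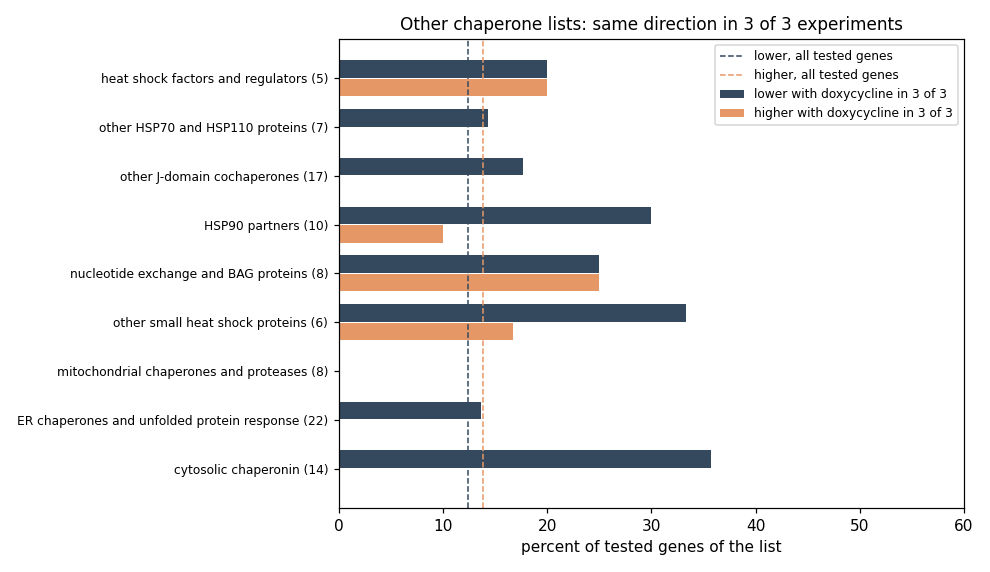
Percent of the tested genes of each chaperone list that were lower (dark) or higher (light) with doxycycline in 3 of 3 experiments, with the shares of all tested genes, 12.4% lower and 13.8% higher, as dashed lines. The number of tested genes stands after each list name, and the chaperonin list reaches 35.7% lower with none higher.

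Among the regulators, Hsf2, a heat shock factor active in development, had a mean log2 difference of -0.58 with the signs mixed, at -1.13, 0.07 and -0.69. Hsbp1, which binds HSF1 and lowers its activity, was higher in 3 of 3 at a mean of 0.27. Hspbp1 had a mean of 0.21. Among other HSP70 proteins Hspa12a stood highest at 0.34 and Hspa2, the testis-enriched HSP70, lowest at -0.38. Hspa4l, an HSP110 protein, gave 420, 144 and 734 with doxycycline, against 468, 201 and 687 in uninduced arrays, and was called between experiments (limma adjusted p = 0.00788), being lowest in B. In the J-domain list Dnajb12 stood highest at 0.70, mainly from C, Dnajc6 lowest at -0.58, and Dnajb5 was lower in 3 of 3 at -0.42.

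Cdc37, which loads kinases onto HSP90, was the HSP90 partner with the highest mean, 0.30, and Ahsa2, a relative of an HSP90 ATPase activator, had the lowest at -0.24. Fkbp5, an HSP90-bound immunophilin, gave 1237, 604 and 1733 with doxycycline, against 1159, 644 and 1528 in uninduced arrays, and was called between experiments (limma adjusted p = 0.0120). Bag3, which couples HSP70 to autophagy and is itself an HSF1 target, was higher with doxycycline in 3 of 3. It gave 1316, 1570 and 881 with doxycycline, against 815, 1493 and 571 in uninduced arrays, with differences of 0.68, 0.07 and 0.61 (mean 0.45), and was called between experiments (limma adjusted p = 0.0447). Sil1, a nucleotide exchange factor of Hspa5, was lower in 3 of 3 at a mean of -0.29.

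Cryab, a small heat shock protein abundant in heart and lens, gave 302, 1083 and 92.0 with doxycycline, against 901, 1212 and 103 in uninduced arrays. It was lower with doxycycline in 3 of 3, mainly in A at -1.52, and was called between experiments (limma adjusted p = 0.00371), with C lowest in both groups. The summed signal of 6 cardiac markers, the dim Actn2 included, was likewise lowest in C, at 228 with doxycycline and 382 uninduced. In C Tnnt2 gave 5.1 with doxycycline and 40.3 uninduced, and Myl7 11.9 and 17.9. These markers and Myl4 were lowest in C in both groups, but Nkx2-5 and Myh6 were not. Among uninduced arrays Nkx2-5 was highest in C, at 138.5 against 75.4 in A and 124.9 in B. With doxycycline Myh6 was higher in C, at 67.7, than in A, at 34.6. The part of heart cells in the Cryab level was not tested. Hspb2 had a mean of 0.10. In the mitochondrial list Grpel1 stood highest at 0.13, Grpel2 lowest at -0.08 and Clpp at 0.03.

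In the endoplasmic reticulum, Ddit3, the stress transcription factor CHOP, gave 522, 682 and 313 with doxycycline, against 725, 1074 and 461 in uninduced arrays. It was lower in 3 of 3, at -0.46, -0.64 and -0.53, and differed between experiments (limma adjusted p = 0.0356), with C lowest. Pdia3, a disulfide isomerase, gave 6460, 11639 and 9214 with doxycycline, against 5547, 12899 and 10664 in uninduced arrays, and was lowest in A (limma adjusted p = 0.0117). Serpinh1, the collagen chaperone, had a mean difference of 0.11 and an adjusted p between experiments of 0.0328 by limma. Of the chaperonin list, Cct6a stood highest at 0.19 and Pfdn6, a prefoldin subunit, lowest at -0.23 and lower in 3 of 3. Cct5 had a mean of 0.14. Actb, a cytoskeletal actin, had a mean of 0.01.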

How the data were processed

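The authors deposited 1 linear intensity per probe set and array for 6 Affymetrix mouse whole-genome arrays, and the submitters' processing notes credit it to MAS5 (version not given in the sources used here). With 2% trimmed from both ends, each array's mean was 500, which is a common scaling, and the median signal was 92.0 to 108.6. No further normalization was applied, no detection calls were used, and precision is limited by there being 6 arrays.

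From the deposited intensity, log2(signal + 18.8) was computed, 18.8 being the 20th percentile. Probe sets with a mean below the 40th percentile (60.5) were left out, which kept 27022 of 45037. GEO's platform annotation, updated through a RefSeq table, named 34945 probe sets for 1 gene and 932 for several, which were not used, and 9160 for none. A gene was represented by its brightest tested probe set. limma 3.58.1 in R 4.3.3 was used two-sided, p-values being adjusted by Benjamini-Hochberg across every tested probe set. The experiment letters pair the arrays: the labels name a shared experiment, and deviations from the group means correlated at 0.445, 0.671 and 0.660 for A, B and C. The code of the fits was checked on simulated data with 1 spread for every probe set and, for doxycycline, no difference between experiments. That check does not measure what the fits can detect in these arrays. The named genes are all probe sets of the 10 genes, the extreme genes and the smallest F test p of each list, the 5 genes most like Hspa1b and Hspa5, Actb and Hoxb4. Members, lists and rules were chosen with earlier results of these data known.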

Additional observations from a re-analysis of the deposited data

How the results depend on the processing

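Doxycycline calls stayed at 0 in all 14 alternatives, the replicate block included, where 1065 probe sets had an unadjusted p under 0.05 against 138 without it. The count of probe sets called between experiments was 3138 and moved to 8179 without both arrays of A, 1754 without B and 1098 without C, and ran between 1502 and 13806 when 1 array was left out. Inducible minus constitutive was -0.24 and ran between -0.60 and 0.23 when 1 array was left out, which leaves its partner array unpaired. Of 130 alternatives for the 10 genes, 116 kept the sign and 127 moved by less than 1 SD between experiments; the others were Hspa5, at -0.51 without the doxycycline array of B, -0.54 without uninduced A and -0.13 without uninduced B. The call of Hspa5 between experiments was lost with no filter on dim probe sets (limma adjusted p = 0.0652), with no doxycycline term (0.0600) and without uninduced B (0.139), the doxycycline array of B (0.0859) or that of C (0.0576) or uninduced C (0.0563). It was also lost without both arrays of B (0.323). That of Hspa1b was lost with no doxycycline term (0.0851) and without both arrays of A (0.470). The cause was not tested. The fits between experiments, with the doxycycline term, have 1 residual degree of freedom on 5 arrays. Without both arrays of an experiment they also have 1. With all 6 arrays, paired and unpaired fits give the same mean differences. With uninduced A left out, the 2 complete pairs give -0.68 for Hspa1b and 0.11 for Hspa1a, where the unpaired fit gives -0.33 and 0.41.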
